A study of Mus musculus with 12 samples.

Results

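Ankrd1, Ankrd2, Csrp3, Myoz2 and Myoz1 encode proteins of the Z-disc, the plate that anchors the thin filaments of the sarcomere, or proteins that bind close to it. All 7 probe sets that the array annotation gives to these 5 genes were taken, of 22690 in the table and of 12393 genes with a symbol of their own. Ankrd1 and Myoz1 had 2 probe sets each and the others 1. All 7 lay above the filter on low signal, so none was lost to it. The genes were selected on signals of these same arrays, above all the height of Ankrd2 in GW array 1, so the values of that array are a description and carry no test.

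The RNA came from quadriceps of C57Bl/6J mice on 12 single-colour expression arrays, in 4 groups of 3. Mice of the GW group stayed sedentary and received GW1516, which activates the nuclear receptor PPARδ, in a daily dose of 5 mg/kg. The exercise group was trained on a treadmill, the combination group had drug and training, and the vehicle group stayed sedentary on vehicle, each for 4 weeks. Every array was hybridized with RNA pooled from 3 mice, so a group stands for 9 mice, and the labels used here give neither age nor sex. One animal's share in a pool cannot be read from these values, and in whole muscle more cells of a type and more RNA per cell cannot be told apart. Values are signals on a linear scale that the authors had scaled to a common mean per array. The deposited median signal of an array lay between 48.4 and 57.2, and the background level was taken as 23.5, the 95th percentile of 27 probe sets for bacterial transcripts, whose median was 4.88. The 7 genes fixed as marks of skeletal muscle, among them creatine kinase and fast myosin, summed to 124594 in GW array 1 and to between 110977 and 137713 in the other 11 arrays. GW array 1 correlated with the other 2 arrays of its group at a mean of 0.95 and with the other groups at 0.9508. It was the lowest array by both measures, where the others lay at 0.956 to 0.968 and at 0.9513 to 0.963. Its ratios of 3' to 5' signal, 0.801 for beta-actin and 0.883 for Gapdh, lay within those of the other arrays (0.763 to 1.10 and 0.821 to 0.94). The 1.10 belonged to vehicle array 1, and the next highest beta-actin ratio was 0.918 (vehicle array 2). Vehicle array 1 also had the lowest median signal, 48.4. In it 465 probe sets tested were at least 2-fold below the median of the other arrays, against 217 to 316 in each of the rest.

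Ankrd1 and Ankrd2 are ankyrin repeat proteins that bind the elastic spring of titin in the I-band and can move to the nucleus. Csrp3, the muscle LIM protein, binds alpha-actinin and telethonin at the Z-disc. Myoz1 and Myoz2, the calsarcins, tie the phosphatase calcineurin to alpha-actinin, Myoz1 in fast fibres and Myoz2 in slow fibres and heart. Ankrd1, Ankrd2 and Csrp3 are known for transcripts that rise after stretch, lengthening contraction or overload, and Ankrd2, Csrp3 and Myoz2 are richer in slow than in fast muscle.

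RefSeq promoter windows are shown for the members that had one (GRCm38.p6, 250 bases before to 50 after a start site, 5′ to 3′ on the gene's strand). Windows were at hand for Ankrd1, Ankrd2, Csrp3 and Myoz2. None was at hand for Myoz1, which could not be set beside them. Csrp3 had 2 windows, and the one at the start of its gene model is printed. The Ankrd1 window also lay at the start of its gene model, while those of Ankrd2 and Myoz2 used another start site. Positions below are counted from the start site of each window. Ankrd1 lies at chr19:36119795-36120094 (minus strand), Ankrd2 at chr19:42035777-42036076 (plus strand), Csrp3 at chr7:48848002-48848301 (minus strand) and Myoz2 at chr3:123034938-123035237 (minus strand). Capitals mark matches to CATTCC, the M-CAT core known to bind TEAD factors, and to the MEF2 and CArG consensus sequences, searched on both strands.
Ankrd1: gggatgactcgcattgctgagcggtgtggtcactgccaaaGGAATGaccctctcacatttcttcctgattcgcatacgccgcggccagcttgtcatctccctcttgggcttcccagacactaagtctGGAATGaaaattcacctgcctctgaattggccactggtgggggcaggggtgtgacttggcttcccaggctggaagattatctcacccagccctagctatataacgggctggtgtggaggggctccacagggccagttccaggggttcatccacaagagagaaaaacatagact
Ankrd2: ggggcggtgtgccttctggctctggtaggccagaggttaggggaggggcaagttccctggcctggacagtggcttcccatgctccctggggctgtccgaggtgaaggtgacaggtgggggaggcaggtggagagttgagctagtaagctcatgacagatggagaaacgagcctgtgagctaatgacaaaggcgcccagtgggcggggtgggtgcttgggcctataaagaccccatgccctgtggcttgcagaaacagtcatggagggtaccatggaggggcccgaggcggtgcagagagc
Csrp3: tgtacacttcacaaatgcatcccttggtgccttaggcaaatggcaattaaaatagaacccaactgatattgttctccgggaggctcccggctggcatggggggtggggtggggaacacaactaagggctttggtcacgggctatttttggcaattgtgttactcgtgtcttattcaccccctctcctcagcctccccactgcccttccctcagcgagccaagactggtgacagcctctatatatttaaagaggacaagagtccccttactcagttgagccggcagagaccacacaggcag
Myoz2: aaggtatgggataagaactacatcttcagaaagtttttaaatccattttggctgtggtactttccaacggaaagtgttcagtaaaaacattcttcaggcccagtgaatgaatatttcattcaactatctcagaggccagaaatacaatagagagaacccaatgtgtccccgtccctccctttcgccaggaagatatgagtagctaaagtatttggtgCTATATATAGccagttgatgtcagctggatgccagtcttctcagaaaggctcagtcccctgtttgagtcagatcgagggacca
The Ankrd1 window held CATTCC on the reverse strand at 2 places, beginning at positions -210 and -123 from the start site. The Myoz2 window held 1 MEF2 match at position -33, next to the start site. No capitals fell in the Ankrd2 and Csrp3 windows, and no CArG match in any of the 4. E-boxes (CANNTG, the same on both strands), which none of the capitals overlapped, numbered 1 in Ankrd1, 3 in Ankrd2, 5 in Csrp3 and 2 in Myoz2. Among 32851 RefSeq windows of the same length, 14.7% held CATTCC, 3.19% a MEF2 match, 1.63% a CArG match and 72.3% an E-box. Of the motifs searched, the E-box alone was in all 4 windows. The matches describe letters only, and binding was not measured.

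Csrp3 (1460318_at) had signals of 1470, 75.7 and 60.03 in the GW arrays, 117, 200 and 103 in exercise, 68.7, 116 and 89.9 in combination, and 152, 63.4 and 68.7 in vehicle. GW array 1 stood alone, 7.36-fold above the highest of the other 11 arrays (exercise array 2) and 16.4-fold above their median of 89.9. Of the 13575 probe sets tested, none had a larger difference between GW array 1 and that median.

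Ankrd2 (1419621_at) had 2388, 105 and 89.4 in GW, 205, 306 and 160 in exercise, 129, 211 and 167 in combination, and 233, 103 and 74.3 in vehicle. GW array 1 was 7.79-fold above the highest of the others, again exercise array 2, and 14.9-fold above their median. Without it, the 2 remaining GW arrays lay inside the range of the vehicle arrays.

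Ankrd1 repeated this in both probe sets. The first (1420991_at) had 1296, 73.9 and 92.1 in GW, 149, 190 and 163 in exercise, 79.2, 128 and 94.2 in combination, and 190, 79.4 and 75.4 in vehicle. The second (1420992_at) had 676, 72.8 and 53.7 in GW, 80.0, 99.8 and 126 in exercise, 67.2, 85.5 and 55.3 in combination, and 138, 67.6 and 68.2 in vehicle. GW array 1 was 13.8-fold and 9.28-fold above the median of the other arrays, the third and the fifth largest difference of all probe sets tested. Vehicle array 1 was the highest of the others in both.

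Myoz2 (1418769_at) had 287, 33.7 and 30.4 in GW, 107, 138 and 120 in exercise, 67.8, 86.7 and 67.2 in combination, and 92.6, 39.4 and 4.28 in vehicle. GW array 1 was 4.24-fold above the median of the others and 2.08-fold above exercise array 2. The level in vehicle array 3 was below the median of the bacterial controls, and GW arrays 2 and 3 were just above the background level, so ratios to these arrays are poorly fixed.

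Myoz1 did not share the pattern. Its probe set 1460202_at had 12951, 12151 and 14547 in GW, 12709, 14824 and 13575 in exercise, 12930, 14006 and 13141 in combination, and 12009, 12990 and 12190 in vehicle. All 12 arrays lay within a narrow range and GW array 1 was at 0.997 of the median of the others. The probe set 1448636_at had 573, 789 and 748 in GW, 378, 686 and 504 in exercise, 776, 716 and 798 in combination, and 433, 802 and 829 in vehicle. GW array 1 was at 0.766 of the median here, and exercise array 1 and vehicle array 1 were the lowest. The 2 Myoz1 probe sets did not follow each other (Pearson's r 0.173 over the 11 arrays without GW array 1).

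**Figure D1:**
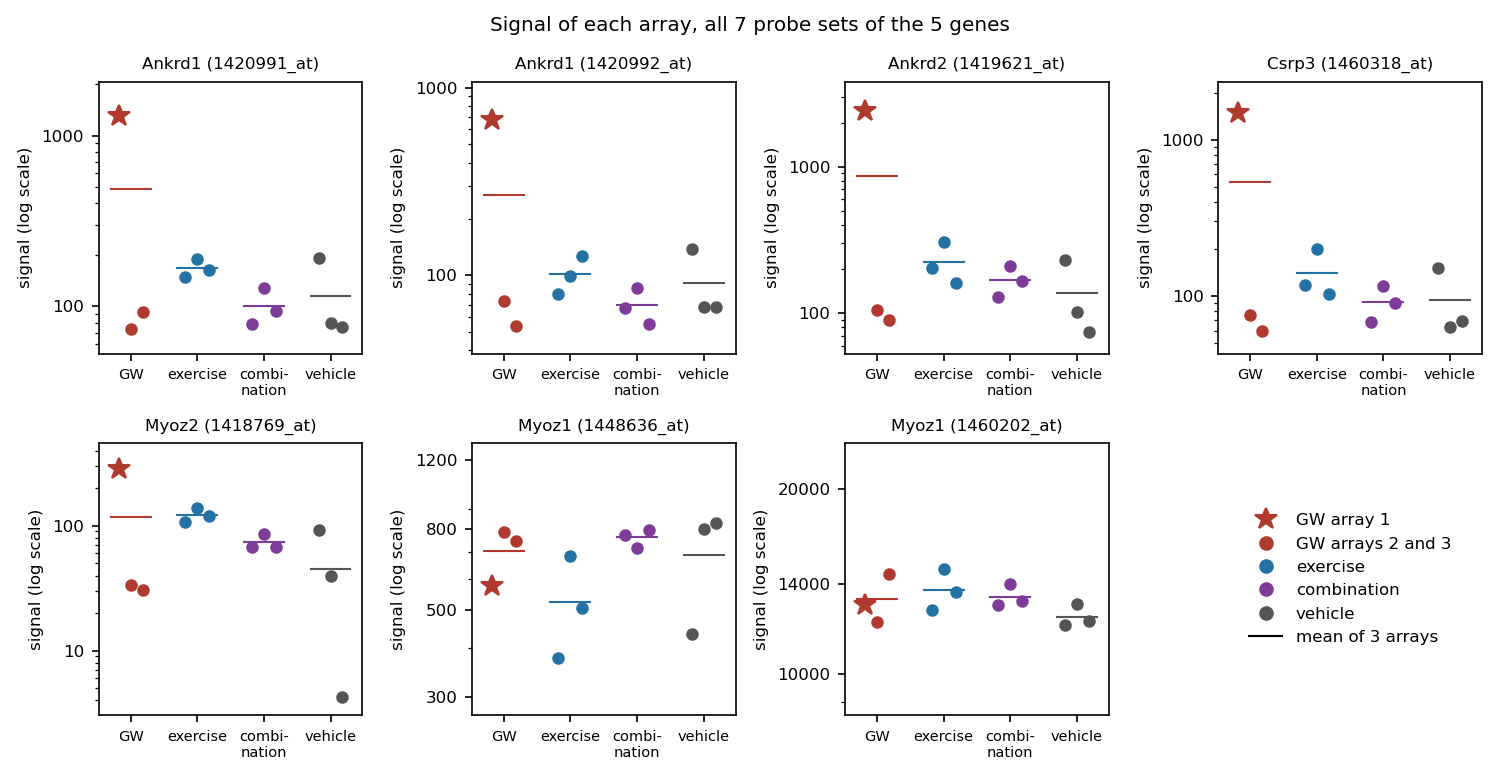
Signal of every array (log scale) for the 7 probe sets, by group, with the mean of each group as a line and GW array 1 as a star. The star stands alone in Ankrd1, Ankrd2, Csrp3 and Myoz2, at 287 to 2388, and lies among the other arrays in Myoz1.

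In numbers of probe sets, GW array 1 was the highest of the 12 arrays in 5 of the 7, against 11.4% of all probe sets tested. It was at least 2-fold above the median of the others in 5 of 7, against 1.29%, at least 4-fold above it in the same 5, against 0.118%, and at least 2-fold above the highest of the others in these 5, against 0.169%. The choice of the genes used this array, so nothing is read from these shares. By the same count, exercise array 2 was at least 2-fold above the median of the others in 3 of the 7 and vehicle array 1 in 1. The 9 other arrays were at that height in none of the 7.

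**Figure D2:**
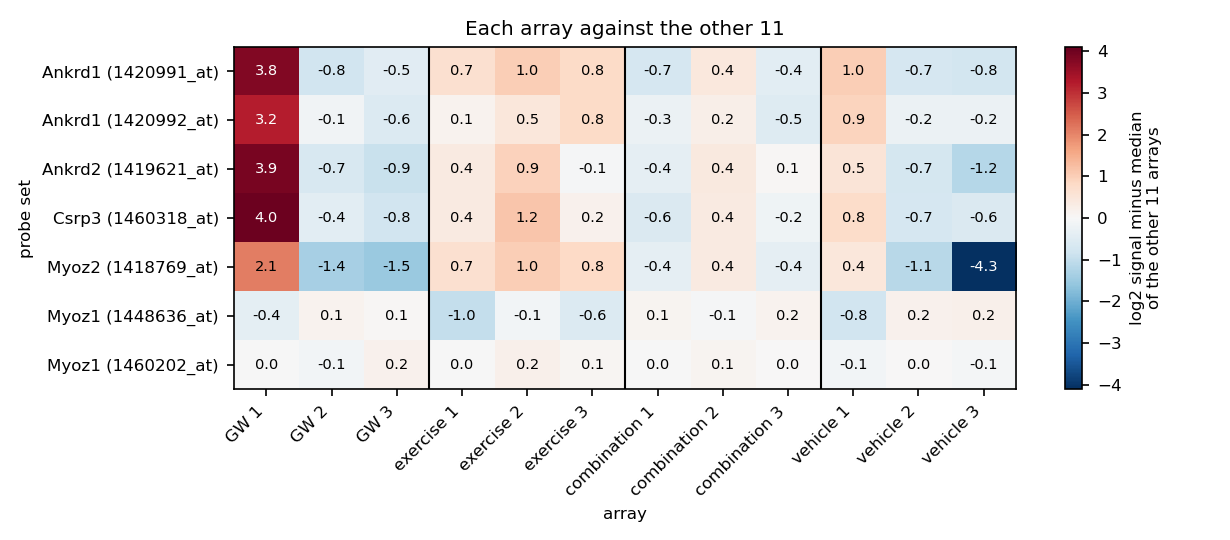
Log2 signal of each array (columns) minus the median of the other 11, for the 7 probe sets (rows). GW array 1 is between 2.08 and 4.03 in the Ankrd1, Ankrd2, Csrp3 and Myoz2 rows, the exercise arrays and vehicle array 1 are mostly above 0 there, and Myoz2 in vehicle array 3 is far below.

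Below GW array 1, Ankrd1, Ankrd2 and Csrp3 still moved together from array to array. Over the 11 remaining arrays, Pearson's r of log2 signal was 0.936 between Ankrd2 and Csrp3 (Spearman's rho 0.909), 0.906 between Ankrd1 (1420991_at) and Csrp3 (rho 0.782) and 0.864 between Ankrd1 (1420991_at) and Ankrd2 (rho 0.818). By r the second Ankrd1 probe set (1420992_at) followed less closely, with 0.62 to Ankrd2 (rho 0.664) and 0.729 to Csrp3 (rho 0.818). Myoz2 followed Ankrd2 with r = 0.841 and Csrp3 with r = 0.651. Myoz1 ran the other way in 1448636_at, with r = -0.759 to Ankrd1 (1420991_at), but not in 1460202_at, with r = 0.291. With GW array 1 included, r between Ankrd2 and Csrp3 was 0.986. These points share the arrays' scaling and differences between groups, and they are given as a description.

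The genes most like each member were ranked by Pearson's r of log2 signal, first over all 12 arrays. For Csrp3 they were Ankrd2 (0.986), Ankrd1 (0.981), the small heat shock protein gene Hspb7 (0.96) and the LIM domain genes Lmcd1 (0.959) and Fhl1 (0.945). For Ankrd1 they were Csrp3, Hspb7 (0.979), Fhl1 (0.973), Ankrd2 (0.971) and Flnc (0.967), which encodes filamin C, a crosslinker of actin at the Z-disc. Ankrd2 had Csrp3, Lmcd1 (0.972), Ankrd1, Hspb7 (0.951) and Fhl1 (0.949). Each of these stood high in GW array 1. Hspb7, in the probe set nearest to Ankrd1, was at 3210 there, against 194 to 672 in the others, Fhl1 at 4694 against 971 to 2256, Lmcd1 at 3055 against 653 to 1381 and Flnc at 3935 against 1169 to 1901.

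Without GW array 1 the neighbours partly changed. Ankrd1 kept Fhl1 (0.96) and Hspb7 (0.953), followed by Coq8a (0.95), a gene of coenzyme Q synthesis, Eif3b (0.926) and 2210016F16Rik (0.909). Ankrd2 was nearest to Htra1 (0.946), a secreted protease gene, then Csrp3, the lactate carrier gene Slc16a1 (0.912), the leiomodin gene Lmod2 (0.89) and Tyrobp (0.887), a signalling adaptor of myeloid cells. Csrp3 was nearest to Ankrd2, Htra1 (0.92), Ankrd1, Tyrobp (0.904) and the lysozyme gene Lyz2 (0.902). Tyrobp had 34.7 in GW array 1 against 20.4 to 81.4 in the others, and Lyz2 392 against 177 to 722, so neither stood out in that array. Myoz2 had the same first gene with and without GW array 1, the ketone body enzyme Bdh1 (0.972 over 12 arrays, 0.966 over 11), and shared Ube2f (0.925 and 0.934), Ldhb (0.906 and 0.919) and Cyp2c38 (0.888 and 0.923), with Stbd1 (0.886) among the 5 nearest over 12 arrays and Tph1 (0.933) over 11. Bdh1 was at 159 in GW array 1 and between 2.38 and 84.3 in the others. Myoz1 (1460202_at) was nearest to the muscle enolase gene Eno3 over 12 arrays (0.913, and the same over 11), with Vdac1 (0.903 in both), Cox4i1 (0.864 and 0.866) and Myh4 (0.86 and 0.876), and with Mrps9 (0.859) the fifth over 12 arrays and Dnmt1 (0.936) the nearest over 11. The candidates were the 12512 probe sets tested with 1 symbol.

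Some genes of the wider Z-disc stood high in GW array 1. Of 24 scaffold genes tested, 10 had their highest signal in that array, as 11.4% of all probe sets did, and 5 were at least 2-fold above the median of the others, as 1.29% of all were, with a median log2 difference of 0.20 against 0.00 over all probe sets. The 5 were the actin-binding repeat gene Xirp1 (1779, against a median of 467 and a highest of 789), Fhl1, Flnc, the alpha-actinin gene Actn2 (2323, against 1073 and 1981) and Cryab (12295, against 5850 and 8049), a small heat shock protein that protects desmin and titin. Core structural genes lay near the median of the others. Titin (Ttn) was at 13151 against a median of 13467, telethonin (Tcap) at 10149 against 10720, the fast fibre alpha-actinin Actn3 at 17920 against 18429, and Ldb3 at 12197 against 11072. Bag3, a cochaperone of filamin turnover, was at 1432 against 984, with 1590 as the highest of the others, and Synpo2 at 1970 against 2279.

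Of 10 paralogs and binding partners tested, 1 had its highest signal in GW array 1 and 0 were at least 2-fold above the median of the others. Myoz3, the third calsarcin, was at 28.9 against 52.1, Csrp1 at 101 against 107, Csrp2 at 46.3 against 34.2, and the titin-bound protease Capn3 at 991 against 1059. The calcineurin subunit genes Ppp3cb and Ppp3r1 were at 1073 against 1246 and at 2044 against 2182, and Ybx1, which encodes a DNA-binding partner of Ankrd1, at 4095 against 4490. Ankrd23, the third ankyrin repeat gene of this family, was not analysed here.

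Among load and stretch responsive genes, 5 of 10 tested were at least 2-fold above the median of the others in GW array 1 (median log2 difference 0.89). Of all probe sets tested, 1.29% were, and this share stands beside the counts of the other lists too. The lists were chosen with earlier results of these data known, so nothing is read from the count. They were Hspb7, the stress transcription factor gene Atf3 (374 against 64.8), Hspb1 (13814 against 5164), Egr1 (192 against 85.3) and Fos (111 against 54.2). Egr1 reached 937 and Fos 1127 in exercise arrays, while in the 5 other sedentary arrays Egr1 lay between 57.9 and 85.3 and Fos between 23.6 and 54.2. Rcan1, a gene induced by calcineurin, was at 1382 against 880, and Ccn1 at 165 against 98.4. Outside the lists, and chosen after their values were seen, Mustn1 (4142 against 516), the metallothionein genes Mt2 (1988 against 263) and Mt1 (3288 against 597), and Tnfrsf12a (1760 against 302), a receptor gene induced in injured muscle, were among the 16 probe sets at least 4-fold up in that array.

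Fibre type genes were set beside this because Ankrd2, Csrp3 and Myoz2 are richer in slow muscle. The 8 slow fibre markers with a probe set summed to 1040 in GW array 1 and to between 626 and 1045 in the other arrays, exercise array 2 being the highest. Atp2a2 alone gave 485 of the sum in GW array 1 and 375 to 567 in the others, so the sum says little about the weaker markers. Of 7 slow contractile genes tested, 2 had their highest signal in GW array 1 and 0 were at least 2-fold above the median of the others. The 2 were Tnnc1 (84.1, against a median of 44.8 and a highest of 71.4) and Casq2 (188, against 119 and 163). Myh7, the slow myosin gene, which lay below the filter, was at 53.9 in GW array 1 against a median of 5.09 and a highest of 24.7. Tnni1, also below the filter, was at 70.6 against 14.99 and 104, and Tnnt1, below it too, at 30.9 against 15.9 and 30.9. Of the genes tested, Myl2 was at 43.8 against 36.6 and 69.8, and Myl3 at 83.4 against 67.2 and 125. Mb was at 7842 against 5513 and Tpm3 at 158 against 194. Among 13 fast fibre genes tested, Myh2 (3205 against 922), the myosin gene of fast oxidative fibres, was at least 2-fold above, and the others were not, with Myh1 at 4334 against 3136, Myl1 at 15852 against 16248, Tnni2 at 23676 against 22625 and Atp2a1 at 26268 against 25152. The part of fibre make-up in the signals of GW array 1 was not tested.

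Markers of other cells were compared in the same way. Of the 6 heart muscle markers, the sum was 70.3 in GW array 1 and 46.6 to 136 in the others, and Myh6, Tnni3, Nppa, Myl7 and Tnnt2 lay between 1.14 and 5.83 there, below the background level, with Ryr2 at 53.2. The 6 macrophage markers, all tested, summed to 1094 in GW array 1, 882 and 774 in the other GW arrays, 911 to 1446 in exercise, 545 to 1070 in combination and 670 to 1181 in vehicle. Fat cell markers summed to 493 in GW array 1 and 361 to 3343 in the others, the high end being combination arrays, endothelial markers to 767 and 665 to 945, fibroblast markers to 6052 and 5433 to 8146, and Schwann cell and nerve markers to 270 and 248 to 347. For each of these 6 cell types the sum in GW array 1 lay inside the range of the other arrays. Of 9 denervation and regeneration genes tested, 3 had their highest signal in GW array 1, as 11.4% of all probe sets did. They were Cdkn1a (382 against a median of 168), Gadd45a (240 against 128) and Myod1 (532 against 405). Of the 9, Cdkn1a alone was at least 2-fold above the median of the others. Myog was at 140 against 106, Chrna1 at 117 against 128, Runx1 at 149 against 151 and Myh3 at 38.2 against 26.3. Actc1, at 1737 against 3752, lay below all 11 other arrays, the lowest of which had 2912. The 13 genes of this list with a probe set summed to 3458 in GW array 1 and to between 4096 and 5964 in the others.

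**Figure D3:**
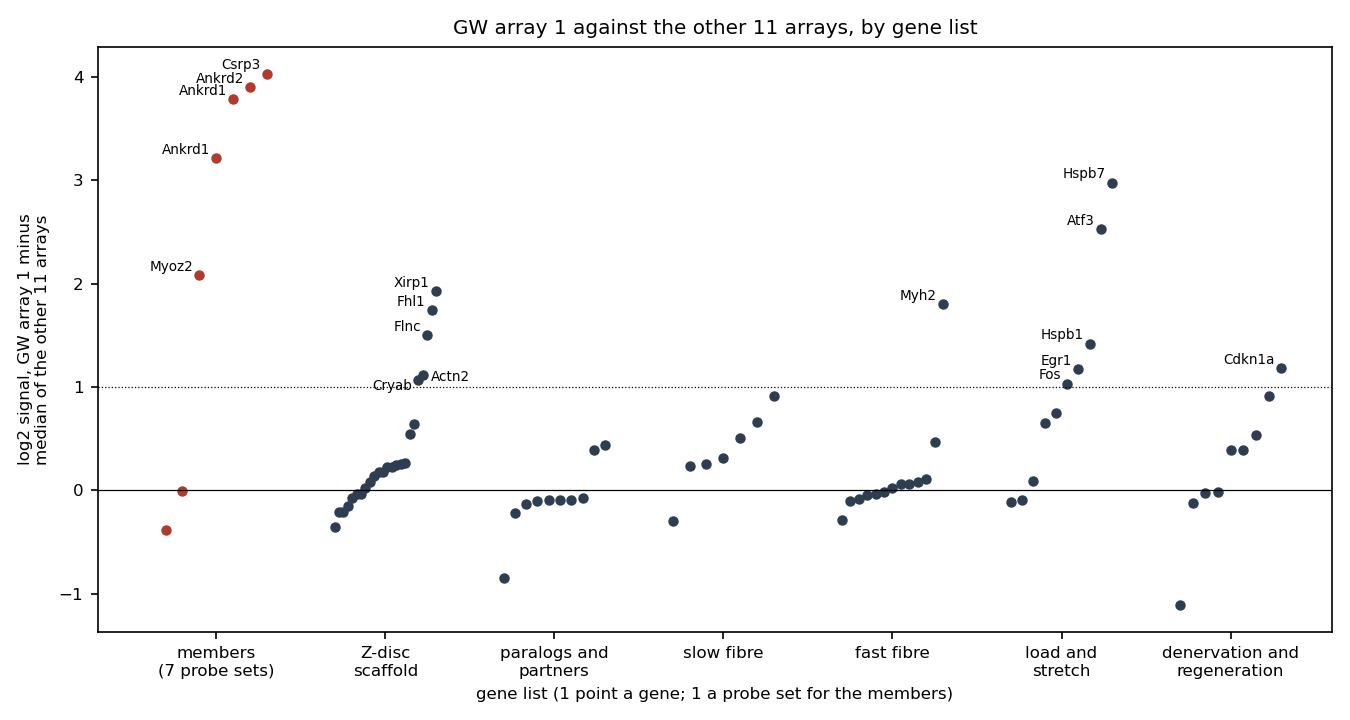
Log2 signal of GW array 1 minus the median of the other 11 arrays, for the 7 member probe sets and for the tested genes of 6 lists (1 point each), with names at a difference of 1 (2-fold, dotted line) or more. Ankrd1, Ankrd2 and Csrp3 lie above every point of the lists, followed by Hspb7, while most Z-disc scaffold genes and partners lie near 0. Each list gene is plotted by its probe set of highest mean signal, which for Hspb7 was at 2.98. Another Hspb7 probe set, not plotted, was at 3.34, above the second Ankrd1 probe set (1420992_at) at 3.21. The order of Hspb7 and Ankrd1 thus depends on the probe set taken.

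Exercise was set against vehicle for the effect of treadmill training, in arrays other than the one that led to the choice of these genes. Myoz2 averaged 122 ± 15.7 in exercise and 45.4 ± 44.5 in vehicle (SD, n = 3 each), and the 2 groups did not overlap. Its log2 fold change was 2.28 ± 0.91 (SE), and it did not pass (adjusted p = 0.405 by limma). Much of this size came from the near-background value in vehicle array 3, without which it was 1.00, against 3.22 without vehicle array 1. It was the 1 member probe set of 7 whose exercise arrays all lay above those of vehicle, against 8.83% of all probe sets, and 0 of 7 lay below without overlap, against 8.56%.

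Ankrd2 averaged 224 ± 74.9 in exercise and 137 ± 84.5 in vehicle, with log2 0.83 ± 0.87 (adjusted p = 0.775 by limma). Ankrd1 (1420991_at) averaged 167 ± 20.9 in exercise and 115 ± 65.3 in vehicle (log2 0.67 ± 0.75, adjusted p = 0.794), and Csrp3 140 ± 52.3 in exercise and 94.7 ± 49.7 in vehicle (log2 0.62 ± 0.83, adjusted p = 0.839). In all 3 the overlap came from vehicle array 1, which stood beside the exercise arrays while vehicle arrays 2 and 3 lay below all of them. Vehicle array 1 was the array with the highest 3' to 5' ratio for beta-actin (1.10), and the part of RNA quality was not tested. Without vehicle array 1 the log2 fold changes were 1.31 for Ankrd2, 1.11 for Ankrd1 (1420991_at) and 1.02 for Csrp3, and without vehicle array 3 those of Ankrd2 and Ankrd1 were 0.48 and 0.44. None of these passed. Without exercise array 2, which was the highest of its group in these genes, that of Csrp3 was 0.33.

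The second Ankrd1 probe set (1420992_at) had a log2 fold change of 0.22 ± 0.66 and Myoz1 0.14 ± 0.08 (1460202_at) and -0.38 ± 0.23 (1448636_at), none past the threshold. With 1 array left out, the first ranged from 0.0463 (without vehicle array 2) to 0.56 (without vehicle array 1), 1460202_at from 0.0843 (without exercise array 2) to 0.20 (without exercise array 1) and 1448636_at from -0.68 (without vehicle array 1) to -0.17 (without exercise array 1). Of the 7 probe sets, 6 had a positive value, with a median of 0.62 on the log2 scale against 0.01 over all probe sets. By limma 0 of the 7 passed, where 0.0147% of all probe sets did. At an unadjusted p under 0.05 there was 1 of 7, Myoz2, where 10.4% of all probe sets were past it.

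GW array 1 widened the spread that the fit gives to Ankrd1, Ankrd2, Csrp3 and Myoz2. Without it, the SE of the exercise effect fell to 0.35, against 0.87 with it, for Ankrd2 and to 0.31, against 0.75 with it, for Ankrd1 (1420991_at). Over those 11 arrays Ankrd2 had a 95% interval of 0.09 to 1.58 on the log2 scale (adjusted p = 0.367 by limma), Ankrd1 0.02 to 1.33 (adjusted p = 0.407), Csrp3 -0.11 to 1.35 (adjusted p = 0.488) and Myoz2 0.67 to 3.88 (adjusted p = 0.244). At an unadjusted p under 0.05 there were then 3 of 7, Ankrd1 (1420991_at), Ankrd2 and Myoz2, where 12% of all probe sets were past it, and 0 of 7 passed after adjustment, where 0.0737% did. GW array 1 was left out for its height in these genes, so their SE was bound to fall. The share over all probe sets carries no such choice, so nothing is read from the 3 of 7. For Myoz1 (1460202_at) the interval was -0.02 to 0.31.

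Outside the members, 1 of 10 genes tested on the load-responsive list passed over 12 arrays, where 0.0147% of all probe sets did. It was Egr1, an immediate early transcription factor gene, which rose with exercise (log2 3.57, adjusted p = 0.0469 by limma). Over the 11 arrays without GW array 1, Fos (log2 4.25, adjusted p = 0.027 by limma) and Hspb1 (log2 0.98, adjusted p = 0.0317) came under the threshold as well. Of all probe sets, 0.0737% did so over 11 arrays. Fos and Hspb1 were both at least 2-fold above the median of the others in GW array 1. Leaving that array out lowers their spread within the GW group, so nothing is read from these 2 calls. The Egr1 call over 12 arrays did not hold with quantile or cyclic loess normalization, without the intensity trend or with a robust prior (adjusted p up to 0.269), nor without any 1 of the vehicle or exercise arrays, combination array 2 or GW array 3 (up to 0.221). Fos over 12 arrays had adjusted p = 0.053 and Hspb1 0.316. The median log2 fold change of the list was 0.81 against 0.01 over all probe sets. Ccn1 had 1.68 (adjusted p = 0.231). In the Z-disc scaffold list 0 of 24 passed in either direction, with a median of 0.10, Actn2 at 0.85, Bag3 at 0.67, Cryab at 0.57 and Synpo2 at 0.37. In the partner list 0 of 10 passed (median 0.06), in the slow fibre list 0 of 7 (median 0.41, Mb 1.07, Tpm3 0.55), in the fast fibre list 0 of 13 (median 0.18, Myh1 0.96, Myl1 0.30) and in the denervation list 0 of 9 (median 0.13, Myh3 2.50 with 2 of 3 vehicle arrays below the background level, Myog 0.74). At an unadjusted p under 0.05 the share over all probe sets was the 10.4% given above. The sum of the 8 slow fibre markers was 760 to 1045 in exercise and 649 to 865 in vehicle, and its part in the members' values was not tested.

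The effect of the drug in trained muscle was read from combination against exercise. Ankrd1 (1420991_at) averaged 100 ± 25.1 in combination and 167 ± 20.9 in exercise, and all 3 combination arrays lay below all 3 exercise arrays. The log2 fold change was -0.76 ± 0.75 (adjusted p = 0.819 by limma), and -0.76 ± 0.31 without GW array 1 in the fit (adjusted p = 0.406). Myoz2 averaged 73.9 ± 11.1 in combination and 122 ± 15.7 in exercise, again without overlap (log2 -0.72 ± 0.91, adjusted p = 0.878). Such separation downward held in 2 of the 7 probe sets and in 8.21% of all probe sets.

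Csrp3 averaged 91.6 ± 23.8 in combination and 140 ± 52.3 in exercise (log2 -0.58 ± 0.83), and Ankrd2 169 ± 40.9 in combination and 224 ± 74.9 in exercise (log2 -0.38 ± 0.87), with overlap in both. Without exercise array 2 these were -0.29 and -0.13. Myoz1 (1448636_at) averaged 763 ± 42.9 in combination and 522 ± 155 in exercise, the 1 probe set of 7 with all combination arrays above all exercise arrays, as in 7.58% of all probe sets (log2 0.59 ± 0.23, adjusted p = 0.478 by limma, and 0.38 without exercise array 1). The other Myoz1 probe set had -0.03 ± 0.08. The median over the 7 was -0.56 on the log2 scale, against -0.01 over all probe sets, and 6 of 7 were negative. By limma 0 of 7 passed, where 0.162% of all probe sets did, and 1 of 7 had an unadjusted p under 0.05, where 9.18% did. Over the 11 arrays without GW array 1, 0 of 7 passed, where 0.243% did, and Ankrd1 (1420991_at) and Myoz1 (1448636_at), 2 of 7, had an unadjusted p under 0.05, where 10.3% did. For Ankrd1 the smaller p followed from leaving out an array set apart for its height in this gene, so nothing is read from this count. No gene of the 6 lists passed over 12 arrays, and over 11 arrays Egr1 was lower in combination than in exercise (log2 -2.68, adjusted p = 0.0313 by limma), 1 of 10 genes of the load-responsive list, with Fos at -3.02 (adjusted p = 0.052). Egr1 too was high in the array left out, so nothing is read from its call over 11 arrays.

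Drug and training together were set against vehicle. Ankrd2 averaged 169 ± 40.9 in combination and 137 ± 84.5 in vehicle (log2 0.46 ± 0.87), and its log2 fold change was 0.10 without vehicle array 3 and 0.93 without vehicle array 1. Ankrd1 (1420991_at) averaged 100 ± 25.1 in combination and 115 ± 65.3 in vehicle (log2 -0.09 ± 0.75), and Csrp3 91.6 ± 23.8 in combination and 94.7 ± 49.7 in vehicle (log2 0.04 ± 0.83). Myoz2 averaged 73.9 ± 11.1 in combination and 45.4 ± 44.5 in vehicle (log2 1.55 ± 0.91, adjusted p = 0.601 by limma), and its log2 fold change was 0.28 without vehicle array 3 and 2.50 without vehicle array 1. The Ankrd1 probe set 1420992_at had -0.34 ± 0.66, and the Myoz1 probe sets 0.21 ± 0.23 (1448636_at) and 0.11 ± 0.08 (1460202_at). The groups overlapped in all 7, while 7.94% of all probe sets lay higher and 8.88% lower in combination without overlap. By limma 0 of 7 passed, where 0.155% of all probe sets did, and 0 of 7 had an unadjusted p under 0.05, where 9.98% did. In the 6 lists 0 genes passed in either direction. Fat cell markers stood high in 2 of the combination arrays, with Adipoq, the adiponectin gene, at 270, 1049 and 1471 in combination and between 210 and 365 in the 9 other arrays. The marker sum was 489 to 3343 in combination, 501 to 661 in exercise and 361 to 664 in vehicle. Of the 3 markers tested, 0 passed and 3 were positive against vehicle, with a median log2 fold change of 1.68, and 3 against exercise, with 1.28. Their part in the members' values was not tested. Without combination array 3 the log2 fold changes against exercise were -0.73 for Ankrd1 (1420991_at) and -0.58 for Csrp3, and without combination array 2 they were -0.95 for Ankrd1 and -0.77 for Csrp3.

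For the drug without training, GW against vehicle, the values of 4 genes turned on 1 array. With all 3 GW arrays, Ankrd2 averaged 861 ± 1323 in GW and 137 ± 84.5 in vehicle (log2 1.22 ± 0.87). Csrp3 averaged 535 ± 810 in GW and 94.7 ± 49.7 in vehicle (log2 1.11 ± 0.83), Ankrd1 (1420991_at) 487 ± 700 in GW and 115 ± 65.3 in vehicle (log2 0.98 ± 0.75), and Myoz2 117 ± 147 in GW and 45.4 ± 44.5 in vehicle (log2 1.41 ± 0.91). They are given without a test.

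Over GW arrays 2 and 3 the picture was different. Ankrd2 averaged 97.2 in these 2 arrays and 137 ± 84.5 in vehicle, at log2 -0.32 ± 0.39 (adjusted p = 0.979 by limma over 11 arrays). Csrp3 averaged 67.9 in the 2 GW arrays and 94.7 ± 49.7 in vehicle (log2 -0.37 ± 0.38), Ankrd1 (1420991_at) 83.0 in the GW arrays and 115 ± 65.3 in vehicle (log2 -0.34 ± 0.34; -0.46 ± 0.34 in 1420992_at), and Myoz2 32.1 in the GW arrays and 45.4 ± 44.5 in vehicle (log2 0.36 ± 0.84). For Myoz2 the means and the log2 fold change differ in sign, the log2 scale giving more weight to the 4.28 of vehicle array 3. Without vehicle array 1 the values of Ankrd2, Csrp3 and Ankrd1 (1420991_at) were 0.15, 0.0302 and 0.0923, and that of Myoz2 was -0.91 without vehicle array 3 and 1.30 without vehicle array 1. The 95% intervals were -1.15 to 0.51 for Ankrd2 and -1.18 to 0.44 for Csrp3. They describe the 2 remaining arrays only, since GW array 1 was set apart for its height in these genes, and over all 3 GW arrays the values were those given above. Myoz1 had 0.10 ± 0.09 (1460202_at) and 0.22 ± 0.25 (1448636_at). By limma 0 of 7 passed, where 0.081% of all probe sets did, and 0 of 7 had an unadjusted p under 0.05, where 6.06% did. The groups overlapped in all 7, while 10.7% of all probe sets lay higher and 10.8% lower in the 2 GW arrays without overlap, and in the 6 lists 0 genes passed.

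**Figure D4:**
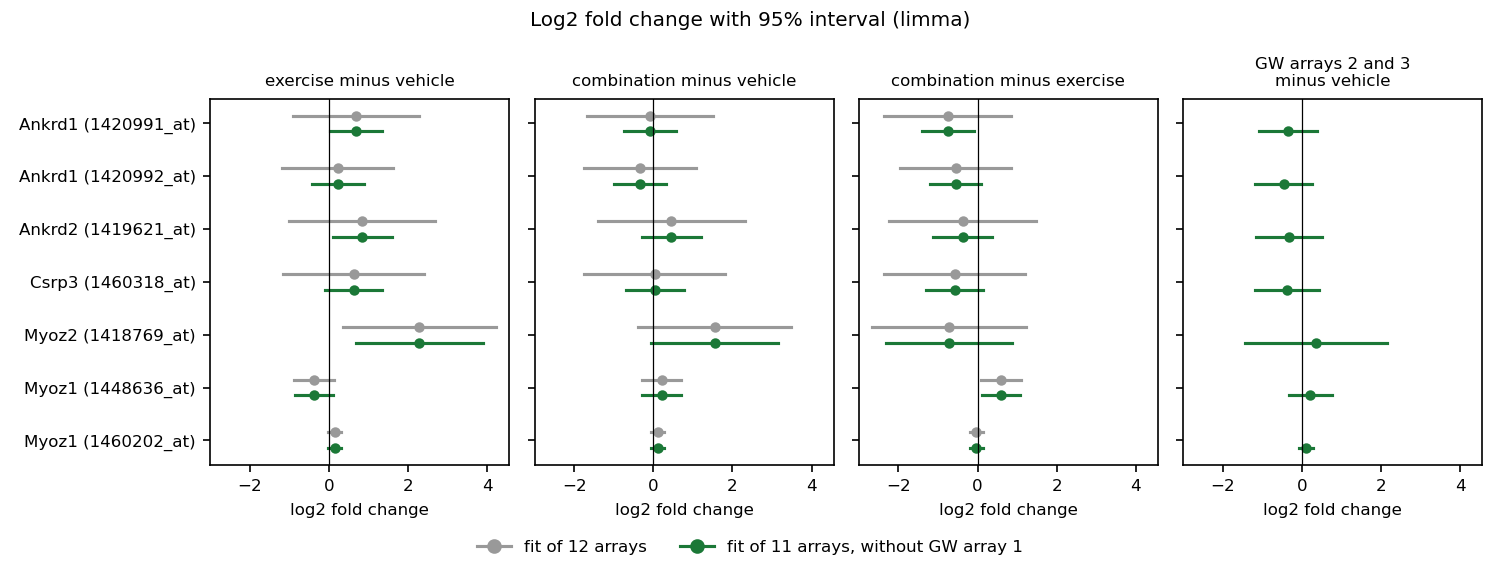
Log2 fold change with its 95% interval (limma) for the 7 probe sets in 4 comparisons, over 12 arrays (grey) and over the 11 arrays without GW array 1 (green). The intervals of Ankrd1, Ankrd2 and Csrp3 are narrower without that array, and none of the values passed after adjustment over all probe sets.

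With GW array 1 set apart, mean Ankrd1 (1420991_at) signals ran, from low to high, from GW arrays 2 and 3 (83.0) through combination (100) and vehicle (115) to exercise (167). For Csrp3 the order was the same, with 67.9, 91.6, 94.7 and 140. Ankrd2 and Myoz2 had combination (169 and 73.9) above vehicle (137 and 45.4), with GW arrays 2 and 3 (97.2 and 32.1) again lowest and exercise (224 and 122) highest. On the log2 scale of the tests vehicle was lowest for Myoz2 (0.36 for GW arrays 2 and 3 against vehicle), and combination stood just above vehicle for Csrp3 (0.04). The place of the GW arrays as lowest rested on vehicle array 1 for Ankrd1 (1420991_at), Csrp3 and Ankrd2. Without vehicle array 1 they were above vehicle by 0.0923, 0.0302 and 0.15 on the log2 scale. In the second Ankrd1 probe set (1420992_at) they stayed below vehicle without it, at -0.12. No pair of neighbours in these orders passed a test, and for Csrp3 combination and vehicle differed by less than 1 SD of either group. The exercise group was the highest of the 4 for each of these 4 genes, and the difference in this order from Myoz1, whose means (1460202_at) were 13349 in GW arrays 2 and 3, 13703 in exercise, 13359 in combination and 12396 in vehicle, was not tested.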

How the data were processed

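Biotin-labelled RNA from quadriceps, pooled from 3 mice per array, was measured on 12 single-colour arrays. What the authors deposited is a linear MAS5 signal intensity per probe set and array, per the submitters' processing notes (MAS5 version not stated). With the lowest and highest 2% removed, array means lay between 200.093 and 200.098. These signals were taken to log2 as they stood. Tests covered the 13575 probe sets in the upper 60% by mean log2 signal (mean signal above 28.4), not counting 64 controls. Symbols are those of the array's annotation table (20380 probe sets with 1 symbol, 691 with several and 1555 with none besides the controls). Of those with 1 symbol, 20351 matched the RefSeq table and 0 changed symbol. The members are all probe sets with 1 of the 5 symbols.

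The model, a mean for each of the 4 groups, was fitted with limma 3.58.1 (R 4.3.3) over all 12 arrays, leaving 8 residual degrees of freedom, and variances were moderated along an intensity trend (median prior 6.84). GW was tested over the 11 arrays without GW array 1 (7 residual, median prior 7.10). All p-values are two-sided. They were adjusted by the Benjamini-Hochberg method over the 13575 probe sets, and the threshold was 0.05. Nothing in the labels says how the pools were formed beyond 3 mice of a group in each, so p-values measure the spread between pools. The number of arrays limits the precision. The members and lists were chosen with earlier results of these data known. Named genes were the members, the 5 nearest by correlation to each member's probe set of highest signal, up to 4 genes a list (past the threshold first, then smallest p in exercise against vehicle) and a set of partners and slow fibre genes. A list gene was taken by its probe set of highest mean signal. On simulated data for exercise against vehicle with 22626 probe sets, 200 of them changed in each of 5 runs, 21.8% were called at 1.5-fold, 63.6% at 2-fold and 79.1% at 3-fold, with 4.66% of calls false. The changed probe sets were drawn at random past the filter, and the median SE over the probe sets tested was 0.21. Ankrd1, Ankrd2, Csrp3 and Myoz2 had SEs of 0.66 to 0.91 over 12 arrays, so these shares do not hold for them. Alternatives were other normalizations, a pseudocount, filters, variance priors, array weights, a fit of the compared groups alone, a block for array number, and the removal of each array. Deviations of same-numbered arrays from their group means correlated between -0.048 and 0.1, highest for vehicle with GW (0.063 to 0.1). Arrays of different numbers were not compared, so these values do not decide whether array numbers pair the samples.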

Additional observations from a re-analysis of the deposited data

Results flagged for a closer look

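Ankrd1 (1420991_at), Ankrd2 and Csrp3 ran in opposite directions with training in the presence and absence of the drug, when each array was set against the mean log2 signal of the untrained group. All 3 combination arrays lay below the GW mean, the average difference on the log2 scale being -1.07 for Ankrd1 (1420991_at), -0.76 for Ankrd2 and -1.07 for Csrp3. All 3 exercise arrays lay above the vehicle mean, on average by 0.67 for Ankrd1, 0.83 for Ankrd2 and 0.62 for Csrp3. This difference was not tested with GW array 1, which raised the GW mean in each of them. Over the 11 arrays without it, combination minus GW was 0.26 for Ankrd1 (1420991_at), 0.78 for Ankrd2 and 0.41 for Csrp3, and the interaction by limma had adjusted p = 0.921 for Ankrd1, 0.996 for Ankrd2 and 0.973 for Csrp3. The second Ankrd1 probe set (1420992_at) was not flagged, since exercise array 1 lay below its vehicle mean, and exercise minus vehicle averaged 0.22.

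For Myoz2 the drug ran in opposite directions in trained and untrained muscle. All 3 combination arrays lay below the exercise mean, at a difference of -0.72 on average, and all 3 GW arrays above the vehicle mean on the log2 scale, by 1.41. This was not tested either. The vehicle mean held the near-background value of vehicle array 3, and without GW array 1 the GW value was 0.36 and the interaction had adjusted p = 0.921 by limma.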

How the results depend on the processing

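No member probe set passed the threshold in any of the 4 comparisons tested, as reported or under any of the 10 alternatives that kept all arrays or any removal of 1 array. The count of member probe sets called was 0 throughout, also with the replicate block, where the counts over all probe sets were 2 for exercise against vehicle, 18 for combination against vehicle, 26 for combination against exercise and 9 for GW arrays 2 and 3 against vehicle. The lowest adjusted p was 0.199, for Myoz2 in exercise against vehicle with array weights (range over its alternatives 0.199 to 0.657). Myoz2 was not tested with the filter at the upper 40%. Of 605 member values under an alternative, 590 kept their direction and 15 did not, all of them small or resting on 1 array. With array weights Ankrd1 (1420991_at) in combination against vehicle was at 0.15. The others came from leaving out an array, where the values ranged from -0.32 to 0.35 for Ankrd1 (1420991_at), from -0.51 to 0.0066 for 1420992_at, from -0.19 to 0.44 for Csrp3 and from -0.10 to 0.37 for Myoz1 (1448636_at) in combination against vehicle, and from -0.0875 to 0.0235 for Myoz1 (1460202_at) in combination against exercise. In GW arrays 2 and 3 against vehicle they ranged from -0.58 to 0.0923 for Ankrd1 (1420991_at), from -0.67 to 0.15 for Ankrd2, from -0.60 to 0.0302 for Csrp3, from -0.91 to 1.30 for Myoz2, from -0.0856 to 0.38 for Myoz1 (1448636_at) and from -0.0279 to 0.23 for 1460202_at. The cause was not tested. The height of GW array 1 over the median of the others, recomputed after the data were seen, was 3.88 to 4.08 on the log2 scale for Csrp3 and 1.93 to 2.06 for Myoz2 with quantile or cyclic loess normalization or a pseudocount. The alternatives for Egr1, Fos and Hspb1 were also run after the data were seen. In exercise against vehicle Egr1 passed in 6 of 10 that kept all arrays and in 4 of 12 that left 1 out, Fos in 6 and 4, and Hspb1 in 1 and 1. Egr1 in combination against exercise passed in 3 and 2. Signals near the background level limit Myoz2.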
